A study of Mus musculus with 14 samples.

Results

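The exon 4 hairpin experiment set 3 poly(A) RNA libraries of mouse tumor organoids carrying a hairpin against exon 4 of Suv4-20h2 beside 3 libraries of organoids carrying the control hairpin made for that clone. These 6 libraries were chosen by their titles, out of 14 in the series. All 6 came from APT organoids, a line that the labels describe as tumor organoids of the small intestine, and the labels do not spell out what the letters APT stand for. The hairpins were inducible, and organoids of both groups, controls included, were kept in 0.5 µg/ml doxycycline for 4 days before RNA was taken. The labels call the exon 4 line a clone, so 1 line stands for this hairpin, and they do not say whether the 3 libraries of a group came from separate cultures. P-values therefore speak only of the spread from library to library, part of which may be technical. The deposited names of hairpin replicates 2 and 3 carry the word neu and those of the other 4 libraries do not, and the sources used here do not explain it. Protein levels and histone marks were not analysed here.

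Suv4-20h2, whose current gene symbol is Kmt5c, is a histone methyltransferase that adds further methyl groups to lysine 20 of histone H4 once Kmt5a has placed the first. Its paralog Kmt5b does the same over a wider part of the genome, while Kmt5c is known for acting at pericentromeric heterochromatin, where HP1 proteins recruit it. Intestinal epithelium is built from stem cells that give rise to absorptive enterocytes and to secretory goblet, Paneth, enteroendocrine and tuft cells, and tumor organoids keep part of that hierarchy.

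The targeted gene was counted first. Kmt5c (ENSMUSG00000059851, chr7:4740115-4747514, GRCm38) was at 72.2, 75.7 and 67.2 CPM (counts scaled to the size of each library, not to gene length) in control replicates 1 to 3. In hairpin replicates 1 to 3 it was at 53.5, 64.2 and 56 CPM. Each hairpin library was below each control library, and the lowest control was close to the highest hairpin value. The log2 fold change was -0.31 (SE 0.17, n = 3 and 3, edgeR adjusted p = 0.801) with all libraries and -0.26 (adjusted p = 0.498) without hairpin replicate 1, so a lower mRNA level was not shown by the test in either view. Kmt5b read 63.1, 83.6 and 106 CPM in controls and 115, 66.7 and 57 CPM in hairpin libraries, and its groups overlapped (log2 fold change -0.08, adjusted p = 0.962). Without replicate 1 the log2 fold change of Kmt5b was -0.45 (adjusted p = 0.368). By the labels the hairpin is directed against exon 4. In transcript Kmt5c-201, exon 4 of 9 is a coding exon of 110 bases on the plus strand at chr7:4742619-4742728 (GRCm38). It is shown because the hairpin's own sequence was not used here. Whether the labels number exons by this transcript was not checked, so that the target lies within these bases is assumed.
Kmt5c exon 4: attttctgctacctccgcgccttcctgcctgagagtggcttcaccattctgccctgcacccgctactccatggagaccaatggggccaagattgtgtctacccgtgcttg

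**Figure D1:**
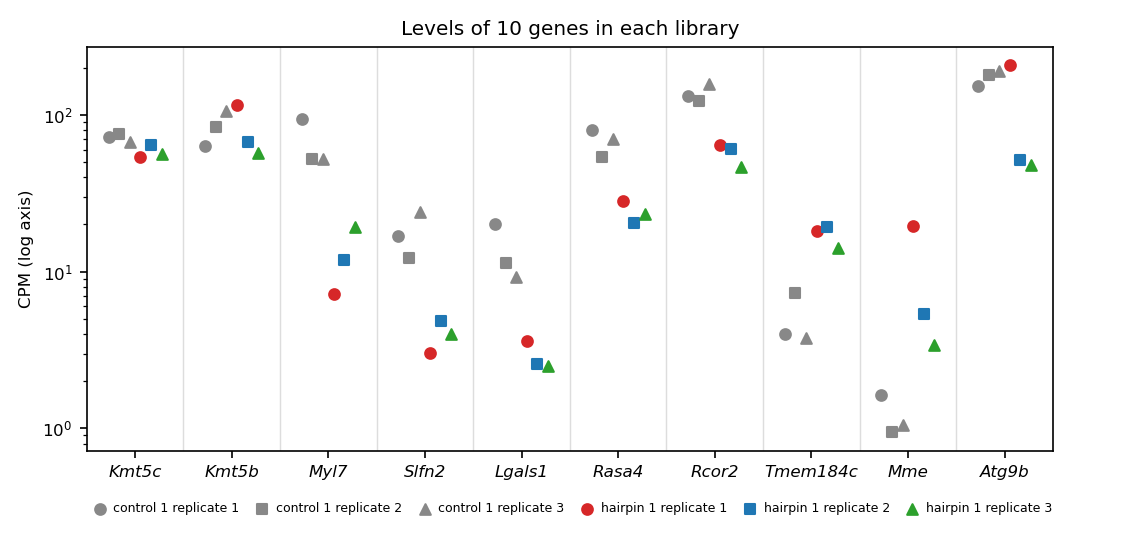
Levels of 10 genes in CPM (log axis) in each of the 6 libraries, with grey points for control 1, and red, blue and green points for hairpin replicates 1, 2 and 3. For Myl7, Slfn2, Lgals1, Rasa4, Rcor2, Tmem184c and Mme all 3 hairpin points lie on one side of all 3 control points, whereas for Atg9b replicate 1 sits at 207 CPM, above the controls, and replicates 2 and 3 sit at 51.8 and 47.9 CPM.

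Replicate 1 of the hairpin was unlike every other library. Across 10470 genes averaging 5 CPM or more, its log2 CPM correlated with those of the other libraries at Pearson's r of 0.776 to 0.836, where the 3 control pairs gave 0.948 to 0.966. Hairpin replicates 2 and 3 were the closest pair of all, with r = 0.984 and 87 genes more than 2-fold apart, against 441 to 763 genes for pairs of controls and 2048 to 2943 for pairs that include hairpin replicate 1. Control replicate 2 was nearer to hairpin replicates 2 and 3 (416 and 447 genes more than 2-fold apart) than to control replicate 3 (763 genes). Total counts ran from 16265034 to 23321606, with the highest total in hairpin replicate 1. Epithelial genes were high in every library: Epcam stood between 814 and 1324 CPM, Vil1, a brush border protein, between 332 and 389 CPM, and Cdx2, an intestinal transcription factor, between 105 and 189 CPM.

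Set against the mean of the 3 controls, each hairpin library gave its own count of genes that differed by more than 2-fold. In replicate 1, 1128 genes (10.8%) were above and 1058 (10.1%) below. Replicate 2 had 137 genes (1.31%) above and 237 (2.26%) below, and replicate 3 had 119 (1.14%) above and 276 (2.64%) below. The gene-by-gene differences of replicates 2 and 3 correlated across genes at r = 0.773, while those of replicate 1 correlated with them at -0.11 and -0.14. These coefficients are descriptions across genes, which are not independent, and all 3 differences share the same control mean. Replicates 2 and 3 shared 62 genes above and 135 below, and the count in all 3 libraries was 9 above and 21 below. In 54 genes replicate 1 was more than 2-fold above while both others were more than 2-fold below, and in 31 genes the reverse held.

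**Figure D2:**
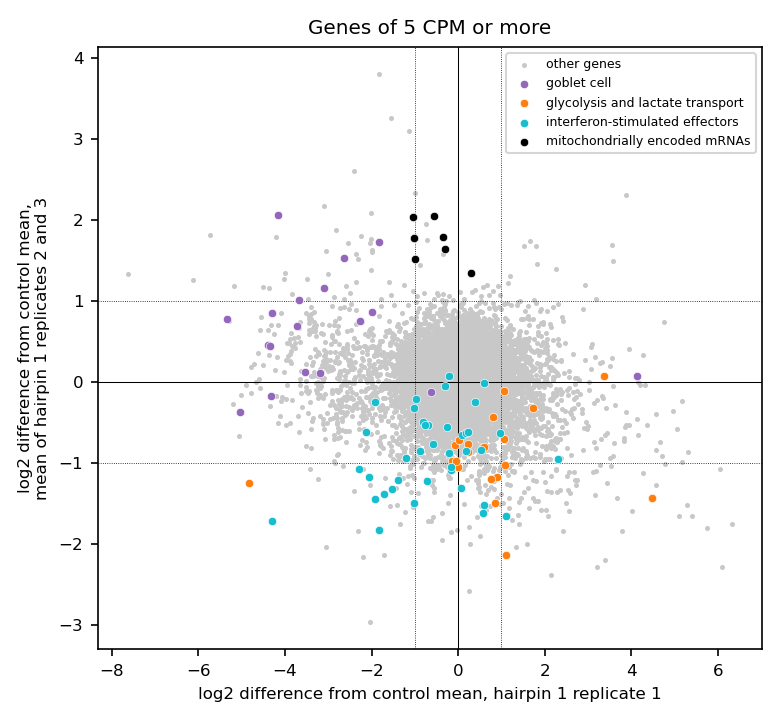
Each point is a gene of 5 CPM or more, with its log2 difference from the control mean in hairpin replicate 1 (x axis) and the mean of its log2 differences in hairpin replicates 2 and 3 (y axis), and dotted lines at 2-fold. The cloud is wide along x and narrow along y, goblet cell genes lie mostly at the left and above 0, glycolysis genes mostly at the right and below 0, and interferon-stimulated genes mostly below 0 on both sides.

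With all 6 libraries, no gene passed an adjusted p of 0.05 in edgeR's quasi-likelihood test (0 of 13540 genes, 0%), and the smallest adjusted p was 0.801. At an unadjusted p under 0.05 there were 331 genes (2.44%) higher and 402 (2.97%) lower in the hairpin group. The groups did not overlap for 878 genes (6.48%) in the higher and 862 (6.37%) in the lower direction. The DESeq2 Wald test called 6 genes higher (0.0443%) and 14 lower (0.103%), and limma voom with library quality weights, which gave replicate 1 a weight of 0.132, called 0 higher and 8 lower. Of these, 5 genes were called by both, all lower: Myl7, Rasa4, Rcor2, Sprr2b and 4930447F24Rik. Leaving out any 1 library in turn gave 0 edgeR calls, except that without hairpin replicate 1 there was 1.

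Calls in this view came from genes that differed in the same direction in all 3 hairpin libraries, except for Atg9b, called lower by voom alone (described below). Myl7, a regulatory light chain of atrial-type myosin (chr11:5896637-5898782), was at 93.4, 52.3 and 52.4 CPM in controls and 7.22, 11.8 and 19.3 CPM in hairpin libraries. The highest hairpin value lay well below the lowest control value (log2 fold change -2.37, SE 0.43, edgeR adjusted p = 0.801, DESeq2 adjusted p = 0.000461). Slfn2, a Schlafen family gene inducible by interferon (chr11:83065112-83070678), read 16.9, 12.2 and 24 CPM in controls and 3.02, 4.82 and 4.02 CPM with the hairpin, with no overlap (log2 fold change -2.16, DESeq2 adjusted p = 0.000298). Lgals1, which encodes the sugar-binding protein galectin-1, read 20.049, 11.3 and 9.24 CPM against 3.59, 2.58 and 2.49 CPM (log2 fold change -2.23, DESeq2 adjusted p = 0.00123). For Myl7, Slfn2 and Lgals1 edgeR's adjusted p was 0.801, so the calls are DESeq2's alone, or for Myl7 those of DESeq2 and voom (adjusted p = 0.0371). Over every alternative run with all libraries, the adjusted p lay between the DESeq2 value and 0.999 for Myl7, Slfn2, Lgals1, Tmem184c and Mme.

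Several regulators were also lower in each hairpin library; they were picked out after their values had been seen. Rasa4, a GTPase-activating protein for Ras, was at 80.1, 53.9 and 70.2 CPM in controls and 28.3, 20.5 and 23.1 CPM with the hairpin. Rcor2, a member of the CoREST family of corepressors that partner with the histone demethylase Kdm1a, was at 131, 122 and 158 CPM and 63.8, 60.1 and 46.7 CPM. Ogfr, the opioid growth factor receptor, was at 156, 148 and 168 CPM and 78.1, 87.9 and 77.3 CPM. In each of these genes the control and hairpin values formed separate ranges, and DESeq2 called all of them lower. Others more than 2-fold below the control mean in all 3 libraries included Vwf (von Willebrand factor, 217, 110.2 and 227 CPM against 64.5, 65.2 and 77 CPM) and the metallothionein Mt3 (27.4, 4.07 and 14.9 CPM against 2.23, 1.12 and 4.34 CPM).

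Fewer genes stood more than 2-fold above the control mean in all 3 hairpin libraries, and the 9 were Flot2, Casd1, Aga, Tmem184c, Cadm1, Ubqln2, Mme, BC016579 and Vsig1. Tmem184c was at 4.01, 7.25 and 3.74 CPM in controls and 18, 19.2 and 14.2 CPM with the hairpin (log2 fold change 1.78, SE 0.36, edgeR adjusted p = 0.801, DESeq2 adjusted p = 0.00407). Mme, the membrane peptidase neprilysin, was at 1.63, 0.943 and 1.05 CPM in controls and 19.4, 5.33 and 3.39 CPM with the hairpin, where replicate 1 was the highest by far (log2 fold change 2.95, DESeq2 adjusted p = 0.024). Flot2, a flotillin of membrane microdomains, was at 16, 1.95 and 1.4 CPM and 61.5, 25.4 and 16.8 CPM, and control replicate 1 nearly reached hairpin replicate 3 (log2 fold change 2.42, edgeR adjusted p = 0.801). Casd1, which acetylates sialic acids, and Aga, a lysosomal glycoprotein hydrolase, were more even across the hairpin libraries, at 11.1, 13.1 and 10.7 CPM for Casd1 against 3.37, 1.77 and 5.26 CPM in controls. DESeq2 also called Cystm1 (148, 149 and 150.03 CPM against 297, 249 and 312 CPM), the mitochondrial ADP/ATP carrier Slc25a4 (73.3, 61.3 and 70.9 CPM against 180.2, 140.5 and 132 CPM) and the tetraspanin Cd9 (128, 146 and 133 CPM against 240.3, 233 and 286 CPM) higher.

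Without hairpin replicate 1, the spread between libraries was smaller: edgeR's common dispersion was 0.0572 for the 5 libraries and 0.168 for the 6. That library was left out because its profile was known to stand apart, so a smaller spread followed from the choice. Calls in this view are therefore not independent evidence. EdgeR called 1 of 13883 genes (0.0072%), Atg9b, and 163 genes had an adjusted p under 0.1. At an unadjusted p under 0.05, 922 genes (6.64%) were higher and 1265 (9.11%) lower, and the groups did not overlap for 2445 genes (17.6%) in the higher and 2424 (17.5%) in the lower direction. The DESeq2 Wald test called 185 genes higher (1.33%) and 386 lower (2.78%), and voom called 175 higher and 331 lower, with 434 genes called by both tools. The edgeR count moved widely with single libraries and with the filter: it was 7, 794 and 143 without control replicates 1, 2 and 3, and 0 without either of hairpin replicates 2 and 3. With no filter on low counts it was 385. The 2 remaining hairpin libraries were also the most alike of any pair, as given above. Both carry the word neu in their names and no control does. In this view the hairpin and whatever that word marks cannot be told apart.

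The views disagreed on direction for many genes. Of 13532 genes tested in both, 3421 (25.28%) had log2 fold changes of opposite sign. At an unadjusted p under 0.05 in both views, 562 genes had the same sign and 0 the opposite. The views share all controls and hairpin replicates 2 and 3, so this split is not independent agreement. There were 39 genes that stood at least 1 log2 unit higher with all libraries and at least 1 lower without replicate 1. The count of the reverse was 0, which carries no information because fold changes compare group means of counts. Where replicates 2 and 3 average at least 2-fold above the controls, even 0 counts in replicate 1 leave the hairpin mean above them. Ivl, involucrin of the cornified envelope, was one of them, at 14.9, 1.24 and 0.76 CPM in controls, 219 CPM in hairpin replicate 1, and 0.168 and 0.159 CPM in replicates 2 and 3 (log2 fold change 3.70, edgeR adjusted p = 0.801, with all libraries and -5.05, adjusted p = 0.153, without). Ptgs2, the inducible cyclooxygenase that makes prostaglandin precursors, was at 7.44, 3.06 and 0.058 CPM in controls and 199.7, 0.224 and 0.265 CPM in hairpin replicates 1 to 3 (log2 fold change 4.24, adjusted p = 0.801, with all libraries and -3.81, adjusted p = 0.215, without). In both genes replicate 1 set the sign of the first view, and the control values were themselves spread over more than 1 order of magnitude.

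Genes of H4K20 methylation and heterochromatin, the machinery around the targeted enzyme, had no single direction. Of 29 tested, 16 were higher and 13 lower with all libraries, and 17 higher and 12 lower without replicate 1, with 1 higher and 1 lower in the first view and 0 and 2 in the second at an unadjusted p under 0.05. The shares over all genes were 2.44% and 2.97% in the first view and 6.64% and 9.11% in the second. Ehmt2, the histone H3 lysine 9 methyltransferase G9a, was below all controls in each hairpin library, at 355, 305 and 369 CPM in controls and 269, 251 and 239 CPM with the hairpin. Phf2, a histone demethylase of the PHF family, lay above all controls, at 36.2, 36.7 and 22.3 CPM and 82.3, 50.8 and 42 CPM.

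Atg9b, a lipid scramblase of the ATG9 family that takes part in autophagosome formation, was the gene that fell in the view of 5 libraries. At chr5:24384181-24392143, it was counted at 153, 179 and 189 CPM in controls, and at 51.8 and 47.9 CPM in hairpin replicates 2 and 3 (log2 fold change -1.80, SE 0.19, n = 3 and 2, edgeR adjusted p = 0.0308). Hairpin replicate 1 read 207 CPM, above every control, so that with all libraries the log2 fold change was -0.77 (edgeR adjusted p = 0.814). Voom, which weighted replicate 1 down, called Atg9b lower with all libraries too (log2 fold change -1.685, voom adjusted p = 0.0371). The edgeR call with 5 libraries held without each control in turn. It was lost without hairpin replicate 2 or 3, where 1 hairpin library is assumed to vary like the controls. Over the alternatives run with 5 libraries the adjusted p lay between 7.01e-16 and 0.411. Of the 22 tested genes of the autophagy list edgeR called Atg9b alone, and DESeq2 called 2 lower. In that view 18 of them were lower, 3 at an unadjusted p under 0.05, where 9.11% of all genes were, and with all libraries 11 of the 22 were lower.

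Replicate 1 differed from all other libraries in genes of differentiated intestinal cells, with wide gaps for goblet and Paneth cell genes. Of 18 goblet cell genes, 16 were more than 2-fold below the control mean in replicate 1, with a median log2 difference of -3.60, against 0.68 and 0.63 in replicates 2 and 3. Muc2, the gel-forming mucin of goblet cells, read 217, 141 and 181 CPM in controls, 8.49 CPM in replicate 1, and 376 and 274 CPM in replicates 2 and 3. Lyz1, the Paneth cell lysozyme, read 519.9, 532 and 351 CPM in controls, 1.84 CPM in replicate 1, and 1312 and 1036 CPM in replicates 2 and 3, the widest gap below the other 5 libraries among genes of at least 20 CPM. Slc5a1, the glucose transporter of enterocytes, read 55.3, 53.7 and 41.8 CPM in controls against 1.66, 106 and 73.2 CPM in hairpin replicates 1 to 3. Guca2a, the gut hormone guanylin, followed the same order, with 119, 63.8 and 111 CPM in controls and 1.84, 158 and 168 CPM with the hairpin. Paneth cell genes had a median of -3.64 in replicate 1, where 10 of 12 tested lay below all controls, as did 5204 of all 13540 genes. The exceptions were Nupr1 (1173, 436 and 651 CPM in controls, 1182 CPM in replicate 1) and Pla2g2a (1814, 692 and 2231 CPM, and 1126 CPM). Enterocyte genes were mixed there (median -1.23), with 9 of 15 below and 5 above all controls, and Krt20, a keratin of mature enterocytes, read 8.48, 1.59 and 3.45 CPM in controls and 49.9, 6.51 and 1.85 CPM in hairpin replicates 1 to 3. In bulk RNA, fewer cells of a type and less RNA per cell cannot be told apart.

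The genes highest in replicate 1 were mostly ones that the other libraries barely held. Ptgs2 (given above) and Gem, a small GTPase induced by stimulation, at 35.2 CPM in replicate 1 and at most 0.755 CPM elsewhere, led the order. Msn, the cytoskeletal linker moesin, was at 152 CPM in replicate 1 and 6.39, 4.30 and 1.23 CPM in controls. Cav1, caveolin, was at 191 CPM and 11.3, 3.18 and 2.22 CPM. Of 20 fetal-like and regenerative epithelium genes tested, 19 lay above all 3 controls in replicate 1, as did 4676 of all 13540 genes. Among the 19 was the alarmin Il33 (41.6, 20.2 and 20.9 CPM in controls, 388, 17.7 and 18.3 CPM with the hairpin), and 14 of 16 immediate early genes also lay above all controls, such as Atf3 (63.3, 47.5 and 43.9 CPM and 296, 48.2 and 43.5 CPM). In both genes replicates 2 and 3 lay within or below the controls.

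These replicate 1 genes were not spread evenly over the other libraries. Among 120 genes more than 4-fold above the other 5 libraries in replicate 1, control replicate 1 had the next highest level in 94, with a median of 12.7% of the replicate 1 level, where the remaining 4 libraries had medians of 5.19 to 6.49%. Msn, Cav1, Ivl and Ptgs2 above all show this order. Control replicate 1 and hairpin replicate 1 share only a number in the labels.

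**Figure D3:**
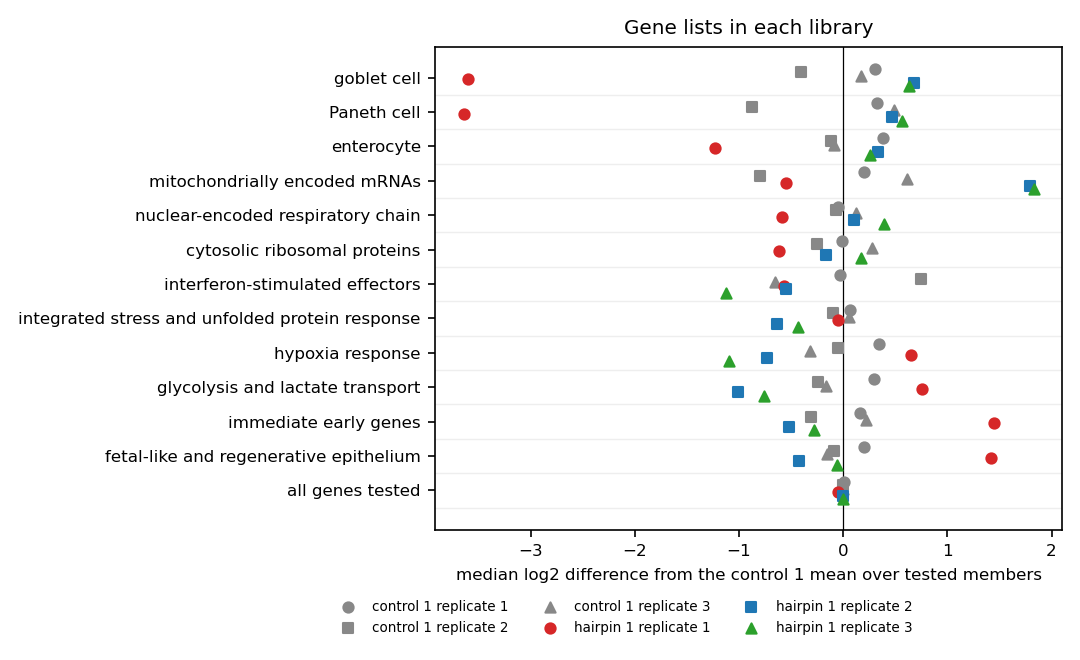
Median log2 difference from the control 1 mean (x axis) over the tested members of 12 gene lists and over all genes tested, for each library, with grey points for controls and red, blue and green points for hairpin replicates 1, 2 and 3. Replicate 1 lies at -3.60 for goblet cell genes and at 1.42 for fetal-like genes, on the opposite side of 0 from replicates 2 and 3, while for interferon-stimulated effectors all 3 hairpin libraries lie below 0.

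Replicate 1 also differed by chromosome. Over 367 genes of chromosome 12 with at least 5 CPM its median log2 difference from the control mean was 0.67, and over 348 genes of chromosome 14 it was -0.69, where the other chromosomes lay between -0.13 and 0.17. On chromosome 12, 33.8% of genes were more than 2-fold above the control mean, and on chromosome 14, 32.5% were more than 2-fold below. Replicates 2 and 3 stood at 0.02 and 0.01 on chromosome 12 and at 0.07 and 0.09 on chromosome 14. On chromosome 13 they stood at 0.15 and 0.13, and on chromosome 19 at -0.17 and -0.15. Without the genes of chromosomes 12 and 14, edgeR's counts stayed at 0 and 1.

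**Figure D4:**
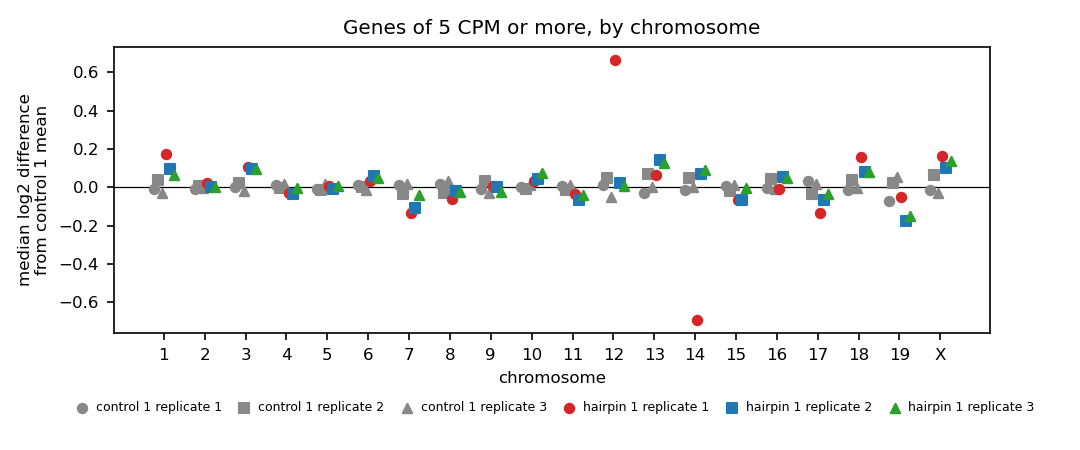
Median log2 difference from the control 1 mean (y axis) over genes of 5 CPM or more on each chromosome (x axis), with grey points for control libraries and red, blue and green points for hairpin replicates 1, 2 and 3. Replicate 1 lies at 0.67 on chromosome 12 and -0.69 on chromosome 14, and every other point lies between -0.17 and 0.17.

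Interferon-stimulated effector genes stood lower by their median in every hairpin library. These genes carry out antiviral defence, and type I and III interferons switch them on. With all libraries, 38 of 41 were lower (median log2 fold change -0.64, against 0.03 over all genes tested), 15 at an unadjusted p under 0.05, where 2.97% of all genes were, and 9 without overlap, where 6.37% were. None passed edgeR's or DESeq2's adjusted threshold. Without replicate 1, 40 of 41 were lower (median -0.93), 25 at an unadjusted p under 0.05 and 17 without overlap, against 9.11% and 17.5% of all genes, and DESeq2 called 8 lower. By library the median was -0.57, -0.55 and -1.12 in hairpin replicates 1 to 3, but the controls themselves ran from -0.65 in replicate 3 to 0.74 in replicate 2. Hairpin replicate 1 lay below all controls for 20 of 41 and above all for 6, as it did for 5204 and 4676 of all 13540 genes. Without control replicate 2 the median with all libraries was -0.32 and 27 of 41 were lower, and without replicate 1 as well it was -0.63 with 32 lower. In the view of 5 libraries it was -1.48 without hairpin replicate 2 and -0.59 without hairpin replicate 3.

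Single interferon genes varied in how replicate 1 behaved. Oas2, which makes the second messenger that activates RNase L, read 36.7, 91.4 and 26.3 CPM in controls and 13.3, 22.8 and 12.5 CPM with the hairpin, with no overlap (log2 fold change -1.67, SE 0.51, edgeR adjusted p = 0.801). Xaf1, a proapoptotic interferon target, read 69.6, 86.3 and 36.1 CPM and 29.6, 31 and 14.3 CPM (log2 fold change -1.36, adjusted p = 0.801). Irf7, the transcription factor that amplifies interferon responses, read 153, 155 and 88 CPM and 67.4, 61 and 39.5 CPM, each hairpin value below each control value, though its span overlaps that of Phrf1 (log2 fold change -1.23, adjusted p = 0.801, and -1.39, adjusted p = 0.0939, without replicate 1). Oasl1, which restrains Irf7 translation, went another way in replicate 1, with 124, 132 and 73 CPM in controls, 161 CPM in replicate 1, and 39.9 and 34 CPM in replicates 2 and 3 (log2 fold change without replicate 1 -1.57, adjusted p = 0.066). Eif2ak2, the kinase PKR that senses double-stranded RNA, read 93, 120.3 and 76.2 CPM and 82.3, 57.3 and 46.2 CPM, and replicate 1 lay inside the control range (log2 fold change without it -0.90, adjusted p = 0.13). Of the signalling genes upstream of them, 20 in all, 8 were lower with all libraries and 13 without replicate 1, so that list had no single direction.

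Promoters of 2 of these genes are shown because most members carry the same short element near the start site. The letters GAAANNGAA, or TTCNNTTTC on the other strand, a core of the interferon-stimulated response element, were found in the windows of 18 of 30 effector genes with a RefSeq window (60.0%), against 9.76% of 27025 genes. Each window runs from 250 bases before to 50 bases after a gene's start (RefSeq, GRCm38.p6), and matches are in capitals. The Eif2ak2 window lies at chr17:78882523-78882822 on the minus strand and holds 2 matches, and the Ifit3b window lies at chr19:34607707-34608006 on the plus strand and holds 3. Ifit3b read 10.3, 26.8 and 4.79 CPM in controls and 2.76, 3.98 and 1.91 CPM with the hairpin, and reads from its near-identical relative Ifit3 make its count uncertain.
Eif2ak2: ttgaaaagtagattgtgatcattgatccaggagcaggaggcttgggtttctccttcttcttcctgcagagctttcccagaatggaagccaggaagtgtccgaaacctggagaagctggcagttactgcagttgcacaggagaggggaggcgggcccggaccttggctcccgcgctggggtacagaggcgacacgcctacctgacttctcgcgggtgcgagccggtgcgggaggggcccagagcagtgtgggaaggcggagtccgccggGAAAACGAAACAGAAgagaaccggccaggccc
Ifit3b: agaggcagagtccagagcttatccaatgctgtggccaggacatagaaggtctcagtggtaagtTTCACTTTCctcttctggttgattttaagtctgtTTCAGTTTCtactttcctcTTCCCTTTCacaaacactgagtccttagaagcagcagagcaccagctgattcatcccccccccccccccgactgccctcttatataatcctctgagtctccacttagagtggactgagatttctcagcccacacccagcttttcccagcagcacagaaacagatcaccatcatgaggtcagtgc

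Glycolysis genes showed opposite pictures in replicate 1 and in replicates 2 and 3. Without replicate 1 all 21 tested genes of glycolysis and lactate transport were lower (median log2 fold change -0.86, against -0.02 over all genes), 17 at an unadjusted p under 0.05 and 16 without overlap, against 9.11% and 17.5% of all genes. DESeq2 called 15 of them lower, where it called 2.78% of all genes, and edgeR none. With all libraries 14 of 21 were lower (median -0.23), 0 at an unadjusted p under 0.05, and the median turned to 0.08, 0.05 and 0.04 without control replicate 1, hairpin replicate 2 and hairpin replicate 3. By library the median was 0.76 in replicate 1 and -1.005 and -0.76 in replicates 2 and 3, with control replicate 1 the highest control at 0.30. The summed level was 31050, 21412 and 24187 CPM in controls and 31533, 12534 and 15447 CPM with the hairpin.

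Pfkfb3, which makes the activator of phosphofructokinase, read 129, 107 and 83.4 CPM in controls and 224, 40.3 and 13.7 CPM with the hairpin (log2 fold change without replicate 1 -1.98, SE 0.40, edgeR adjusted p = 0.0898). Hk1, a hexokinase, read 321, 164 and 199 CPM and 371, 88.9 and 102 CPM (log2 fold change -1.26, adjusted p = 0.0969). In both, replicate 1 was the highest of the 6 libraries and replicates 2 and 3 the lowest. Slc16a3, the lactate exporter MCT4, was an exception, lower in each hairpin library at 147, 107 and 87.2 CPM in controls and 3.46, 38.4 and 56.9 CPM with the hairpin (log2 fold change -1.26 without replicate 1, adjusted p = 0.0939).

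Hypoxia response genes, many of them direct targets of HIF-1, followed glycolysis. Without replicate 1, 20 of 21 were lower (median -0.91), 15 at an unadjusted p under 0.05, 14 without overlap and 9 by DESeq2, against 9.11%, 17.5% and 2.78% of all genes. With all libraries 12 of 21 were lower (median -0.19), and the median turned positive without control replicate 1 (0.07), hairpin replicate 2 (0.02) or hairpin replicate 3 (0.09), or without chromosomes 12 and 14 (0.13). Vegfa, the endothelial growth factor, read 88.3, 72.3 and 57.9 CPM in controls and 225, 29.8 and 19.5 CPM with the hairpin (log2 fold change -1.57 without replicate 1, SE 0.26, adjusted p = 0.0658). Bnip3, a mitophagy receptor, read 87.9, 42.4 and 38.1 CPM and 82.2, 15.4 and 19.2 CPM (log2 fold change -1.70, adjusted p = 0.0939). Car9, the carbonic anhydrase used as a hypoxia marker, was below all controls in each hairpin library, at 68.8, 49.1 and 47 CPM and 7.35, 33.5 and 25 CPM.

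**Figure D5:**
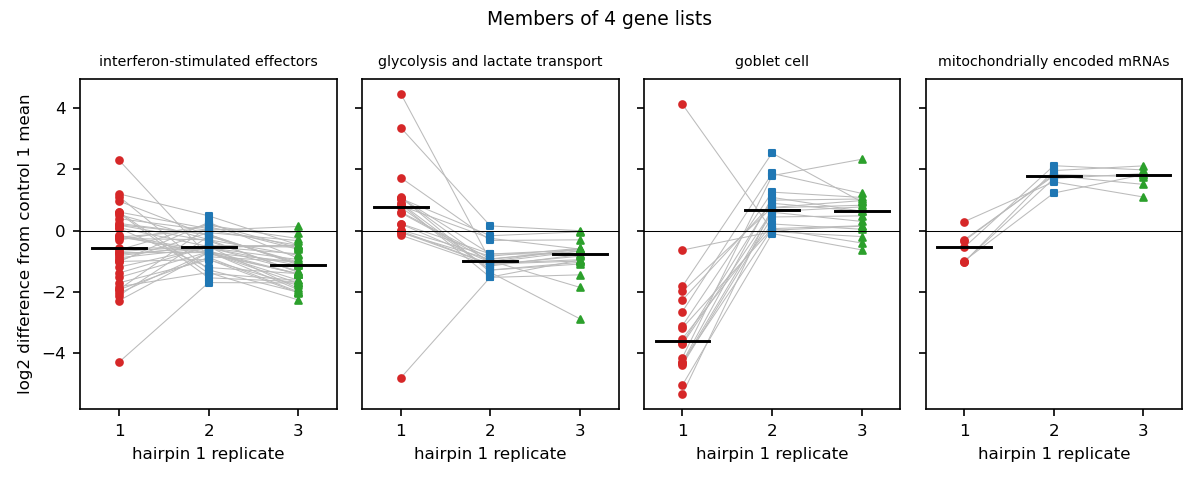
Log2 difference from the control 1 mean (y axis) of each tested member of 4 gene lists in hairpin replicates 1, 2 and 3 (x axis), with lines joining a gene's values and black bars at the median. Glycolysis members sit mostly above 0 in replicate 1 and below 0 in replicates 2 and 3, goblet members the opposite way, mitochondrially encoded mRNAs sit near 1.8 in replicates 2 and 3, and interferon members have medians below 0 throughout.

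Windows of Slc16a3, Hk1 and Bnip3 are shown for the element these lists share. The letters ACGTG, or CACGT on the other strand, the core of the HIF binding motif, were in 14 of 22 glycolysis genes with a window (63.6%) and 13 of 18 hypoxia genes (72.2%), against 21.8% of 27025 genes, and each of the 3 windows holds 2 matches, in capitals, which in Bnip3 overlap because the letters CACGTG read the same on both strands. They lie at chr11:120948817-120949116 on the plus strand, and at chr10:62340372-62340671 and chr7:138909457-138909756 on the minus strand (RefSeq, GRCm38.p6).
Slc16a3: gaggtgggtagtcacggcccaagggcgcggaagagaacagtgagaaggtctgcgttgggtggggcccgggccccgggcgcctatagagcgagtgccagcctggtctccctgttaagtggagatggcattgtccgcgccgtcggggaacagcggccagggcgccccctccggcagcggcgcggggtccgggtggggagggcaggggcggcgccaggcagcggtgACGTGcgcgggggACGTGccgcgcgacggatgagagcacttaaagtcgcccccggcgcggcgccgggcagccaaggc
Hk1: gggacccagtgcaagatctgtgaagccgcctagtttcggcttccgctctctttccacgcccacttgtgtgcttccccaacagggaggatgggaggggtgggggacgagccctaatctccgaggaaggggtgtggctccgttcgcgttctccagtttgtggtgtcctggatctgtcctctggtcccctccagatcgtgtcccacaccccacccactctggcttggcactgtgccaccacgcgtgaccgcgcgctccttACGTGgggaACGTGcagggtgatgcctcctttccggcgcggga
Bnip3: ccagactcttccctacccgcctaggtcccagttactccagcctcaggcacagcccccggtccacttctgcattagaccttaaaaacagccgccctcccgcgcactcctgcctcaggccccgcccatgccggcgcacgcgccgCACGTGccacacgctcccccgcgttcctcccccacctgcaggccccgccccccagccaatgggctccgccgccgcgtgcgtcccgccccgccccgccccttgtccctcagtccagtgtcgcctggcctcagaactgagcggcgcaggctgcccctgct

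Mitochondrially encoded mRNAs, which specify core subunits of the respiratory chain, were higher in replicates 2 and 3. They made up 2.27 and 1.90% of counts there, against 0.752, 0.403 and 0.887% in controls and 0.560% in replicate 1. Of 13 such mRNAs listed, 7 had enough counts to be tested, and 3 to 6 of the 13 had no count in a given library. All 7 tested were higher without replicate 1 (median log2 fold change 1.67), without overlap and at an unadjusted p under 0.05. DESeq2 called all 7, where it called 1.33% of all genes higher. With all libraries they were also higher (median 1.22) and 0 passed an unadjusted p of 0.05. The complex I subunit mt-Nd1 read 894, 725 and 1523 CPM in controls and 486, 3879.8 and 4312 CPM with the hairpin (log2 fold change 1.97 without replicate 1, SE 0.30, edgeR adjusted p = 0.0635). The cytochrome oxidase subunit mt-Co1 read 3482, 1571 and 3696 CPM and 3328, 8215 and 5828 CPM (log2 fold change 1.27, adjusted p = 0.153).

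Respiratory chain subunits encoded in the nucleus differed less. Without replicate 1, 27 of 30 were higher (median log2 fold change 0.23), 9 at an unadjusted p under 0.05 and 17 without overlap, against 6.64% and 17.6% of all genes, and DESeq2 called 1. That median was 0.38 without hairpin replicate 2, and 0.09 with 20 of 30 higher without hairpin replicate 3. Replicate 1 went the other way, below all 3 controls for 28 of 30, as it was for 5204 of all 13540 genes. Cox5a, of cytochrome oxidase, read 129.7, 132 and 134 CPM in controls and 87.7, 176 and 231 CPM with the hairpin, and shows both movements. Cytosolic ribosomal proteins took 9.47 to 12.5% of counts in controls, 7.22% in replicate 1, and up to 11.8% in replicates 2 and 3.

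Many goblet cell genes that were low in replicate 1 stood above the controls in the other hairpin libraries. Without replicate 1, 14 of 18 goblet cell genes were higher (median log2 fold change 0.71), 10 at an unadjusted p under 0.05 and 11 without overlap, against 6.64% and 17.6% of all genes, and DESeq2 called 7. With all libraries 11 of 18 were higher (median 0.20), 0 at an unadjusted p under 0.05, and the median was -0.21 and -0.16 without hairpin replicates 2 and 3. Zg16, a lectin of the mucus layer, read 57.5, 28.5 and 35.3 CPM in controls and 1.71, 135 and 196 CPM with the hairpin (log2 fold change 2.03 without replicate 1, SE 0.29, edgeR adjusted p = 0.0616). Atoh1, the transcription factor that commits cells to the secretory fate, read 23.9, 20.5 and 28.9 CPM and 2.36, 58.4 and 51.7 CPM (log2 fold change 1.17, adjusted p = 0.0703). Muc2 had a log2 fold change of 0.85 (adjusted p = 0.139) without replicate 1. Paneth cell genes had no single direction there, with 7 of 13 higher and 6 lower (median 0.16, and -0.29 without control replicate 2), although Lyz1 had a log2 fold change of 1.33 (adjusted p = 0.066). The Paneth cell protease Mmp7, for one, lay within the controls in replicates 2 and 3, at 223, 128 and 331 CPM in controls and 43, 193 and 176 CPM with the hairpin. Dmbt1, a mucosal pattern-recognition glycoprotein, read 4.01, 2.71 and 0.76 CPM and 0.700, 25.8 and 19 CPM (log2 fold change 3.16, adjusted p = 0.0658), though its annotated span overlaps Fgfr2 and the use of strand in the counting is not given in the sources used here. The chloride channel accessory gene Clca3b read 6.45, 8.31 and 7.89 CPM and 0.437, 53.7 and 23.9 CPM (log2 fold change 2.36, adjusted p = 0.0616).

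Hes1, the Notch target that opposes Atoh1, was higher in all 3 hairpin libraries, at 49.5, 42.1 and 49.992 CPM in controls and 68.3, 95.9 and 103 CPM with the hairpin (log2 fold change 0.91, adjusted p = 0.801, with all libraries and 1.07, adjusted p = 0.0658, without replicate 1). Cd44, a Wnt target and stem cell marker, also lay above all controls in each hairpin library, at 112, 103 and 80.9 CPM and 266, 163 and 144 CPM (log2 fold change 0.95, SE 0.28, adjusted p = 0.801). The intestinal stem cell list as a whole did not share that direction: 11 of 20 members were higher with all libraries and 12 of 20 without replicate 1. Of 15 enterocyte genes tested with all libraries 11 were higher, and of 16 without replicate 1 again 11, with 3 and 6 of them without overlap, against 6.48% and 17.6% of all genes.

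Fetal-like and regenerative epithelium genes split by view. With all libraries 18 of 20 were higher (median log2 fold change 0.48, and 0.82 and 0.79 without hairpin replicates 2 and 3), and without replicate 1, 17 of 21 were lower (median -0.17, and between -0.02 without hairpin replicate 2 and -0.44 without hairpin replicate 3). Voom, which weighted replicate 1 down, had 17 of 20 lower with all libraries, and 14 of 16 immediate early genes. Clu, clusterin, a marker of revival stem cells, was the exception that all hairpin libraries shared, at 12.8, 12.2 and 10.3 CPM in controls and 45.4, 27.4 and 18.5 CPM with the hairpin (log2 fold change 1.37, SE 0.36, adjusted p = 0.801). Immediate early genes, the first to answer growth factors and stress, split the same way, with 12 of 16 higher with all libraries and 14 of 16 lower without replicate 1. Zfp36, which speeds the decay of cytokine mRNAs, instead lay above all controls in each hairpin library, at 21.2, 19.5 and 18.3 CPM in controls and 57.8, 26.8 and 27.7 CPM with the hairpin.

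Stress and inflammatory genes gave 2 smaller groups. Of 22 genes of the integrated stress and unfolded protein responses, 16 were lower without replicate 1 (median log2 fold change -0.49), 11 at an unadjusted p under 0.05, 12 without overlap and 7 by DESeq2, against 9.11%, 17.5% and 2.78% of all genes. With all libraries 13 of 22 were lower (median -0.13), 5 at an unadjusted p under 0.05 and 5 without overlap, against 2.97% and 6.37% of all genes. In that view 1 was higher without overlap. Trib3, an inhibitor of Akt induced by ATF4, read 48.2, 43.4 and 24.5 CPM in controls and 28.6, 9.98 and 8.63 CPM with the hairpin (log2 fold change -2.06 without replicate 1, adjusted p = 0.0635). Chac1, a glutathione-degrading enzyme from the same ATF4 program, read 40.6, 24.9 and 14.6 CPM and 15.6, 7.91 and 6.41 CPM (log2 fold change -1.90, adjusted p = 0.0939). Replicate 1 overlapped the controls in both genes. Sesn2, of the same list, instead lay below all controls in each hairpin library, at 25.5, 19.5 and 26.9 CPM in controls and 16.8, 13.5 and 9.42 CPM with the hairpin. Cdkn1a, the p53 target p21, was highest in replicate 1, at 90.1, 47.7 and 67.8 CPM in controls and 133, 21.6 and 29.3 CPM with the hairpin (log2 fold change -1.43 without it, adjusted p = 0.0849). Tnf, the inflammatory cytokine, was higher in every hairpin library, at 5.23, 5.19 and 4.68 CPM and 7.74, 12.5 and 11.6 CPM (log2 fold change 1.08, adjusted p = 0.801), and so was the chemokine Cxcl1, at 4.30, 6.25 and 7.25 CPM and 9.54, 12.8 and 15.5 CPM (log2 fold change 1.08, adjusted p = 0.801). The NF-kB list to which they belong had 13 of 19 members higher with all libraries and 10 of 20 without replicate 1, where DESeq2 called 5 higher, against 1.33% of all genes.

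Most of the listed markers of cells that an epithelial culture should lack were at or near 0, with exceptions given below. Summed CPM over 14 immune markers was 41.6, 11.8 and 25.8 in controls and 55.2, 9.31 and 8.95 with the hairpin, of which Cd68, a lysosomal protein that other cells also make, gave 39.1, 9.26 and 23.2 CPM and 53.8, 7.07 and 5.50 CPM. The pan-leukocyte marker Ptprc was at most 0.875 CPM, in replicate 1, and Cd3g and Cd4 were at 0 in all 6 libraries. Summed CPM over 15 fibroblast and endothelial markers was 10.5, 2.77 and 11.1 in controls and 52.4, 5.10 and 5.03 with the hairpin, the high value in replicate 1 being Cdh5 at 49.4 CPM. Pdgfrb read 6.86, 1.36 and 9.47 CPM in controls and 1.01, 3.37 and 2.65 CPM with the hairpin. Dcn, Lum, Thy1 and Emcn were at 0 in all 6 libraries, and Pecam1 was at 0 in replicate 1. Outside the lists, the leukocyte tetraspanin Cd53 was at 88 CPM in replicate 1 and at most 3.72 CPM elsewhere. Vwf, also used as an endothelial marker, was at 110.2 to 227 CPM in controls. Which cells made these mRNAs was not tested.

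The view of 6 libraries thus rested on genes in which replicate 1 went with replicates 2 and 3, apart from Atg9b, which voom called. Interferon-stimulated effectors lay below the control mean in all 3 by list median, though not gene by gene. The medians of hairpin replicates 1 and 2 (-0.57 and -0.55) were within the range of the controls, where control replicate 3 stood at -0.65. Myl7, Slfn2, Lgals1, Rasa4 and Rcor2 were called lower by DESeq2's test, with 0 genes past edgeR's threshold. The view of 5 libraries added lower glycolysis, hypoxia and stress response genes and higher mitochondrially encoded and goblet cell genes. By list median, replicate 1 went the opposite way or did not take part in them, though single genes such as Slc16a3, Car9 and Sesn2 were lower in each hairpin library. The added list differences rest on 2 libraries that were closer to each other than any pair of controls, and in edgeR only Atg9b passed. The same 2 libraries carry the word neu, which this view cannot tell apart from the hairpin.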

How the data were processed

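Poly(A) RNA of 6 organoid libraries was sequenced with a stranded library kit, per the labels' protocols. The authors deposited a table of read counts per gene. Per the submitters' processing notes, bcl2fastq 2.20, FastQC, STAR, featureCounts, DESeq2 and GRCm38 were used, with no roles or order given, while the counting options and annotation release were not given in the sources used here. Of 55421 listed genes, 55240 matched GENCODE M21 and 26935 had no count in these libraries. Total counts ran from 16265034 to 23321606, and genes with few counts are correspondingly imprecise. No 2 libraries of a group agreed within sampling noise.

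Counts were divided by TMM-scaled totals to give CPM, with no correction for gene length. Differences of single libraries are log2(CPM + 0.5) minus the mean of the controls. Groups were compared with edgeR 4.0.16 (filterByExpr, TMM, quasi-likelihood test, Benjamini-Hochberg adjusted p of 0.05) in R 4.3.3, once with all 6 libraries and once without hairpin replicate 1, each fitted over all genes that passed the filter. Alternatives were DESeq2 1.42.0, limma 3.58.1 voom with quality weights, other filters and scaling, a replicate block, leaving out chromosomes 12 and 14, and leaving out each library. The code was tested on simulated data. Tables used Python 3.11.15 with pandas 2.3.3, and figures matplotlib 3.10.9.

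The genes and the 37 gene lists were chosen with earlier results of these data known. Named genes were Kmt5c and Kmt5b, genes past the threshold, the 12 largest differences per direction and view (at least 5 CPM, unadjusted p under 0.05, no overlap), the 15 largest gaps per direction between replicate 1 and the rest (at least 20 CPM), 6 genes that turned between views, and up to 4 per list and view. Genes with near-identical relatives (Ifit3b, Lyz1, the Sprr2 family) or overlapping neighbours have uncertain counts.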

Additional observations from a re-analysis of the deposited data

How the results depend on the processing

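EdgeR's count of genes past an adjusted p of 0.05 depended on tool and library. With all 6 libraries it was 0, and DESeq2 gave 20, voom 8 and leave-one-out fits 0 to 1, the 1 without hairpin replicate 1. With 5 libraries it was 1, and DESeq2 gave 571, voom 506, a mean of at least 5 CPM 3, no filter on low counts 385 and leave-one-out fits 0 to 794, the highest without control replicate 2. Whether replicate numbers pair the samples was not settled. Deviations of same-numbered libraries correlated at 0.30, 0.003 and 0.35, and those of other-numbered libraries at -0.31 to 0.22. Hairpin replicate 2 correlated best with control replicate 3. A replicate block gave 0 calls with 6 libraries and 73 with 5. The median of chromosome 12 in replicate 1 was 0.61 also among genes of 1 CPM or more. Among named genes in the 6-library view, log2 fold changes turned with voom for Ivl (-3.97) and Ptgs2 (-2.30). Leave-one-out values ran from -0.45 to 0.15 for Kmt5b, from -5.05 to 6.25 for Ivl and from -3.81 to 5.47 for Ptgs2, each lowest without hairpin replicate 1. Voom, which weighted that replicate down, also put all 21 glycolysis genes lower with 6 libraries. Among list medians under alternatives, 238 moved by less than the spread and 37 by more. The causes were not tested. Depth limits the precision of genes of a few CPM, and the 2 or 3 libraries per group limit all results.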

Other observations

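Other gene groups were read in the same views. Of 30 DNA replication genes, 17 were higher with all libraries and 23 without hairpin replicate 1 (median log2 fold change 0.27, and 0.42 and 0.14 without hairpin replicates 2 and 3), 4 of these at an unadjusted p under 0.05 in edgeR, where 6.64% of all genes were. None passed edgeR's adjusted threshold without replicate 1, and DESeq2 and voom called 1 each. Mcm4, of the replicative helicase, read 44.1, 72.2 and 51.6 CPM in controls and 59.9, 94.9 and 109.7 CPM with the hairpin. Plk1, a mitotic kinase, read 79.9, 108 and 103 CPM in controls and 86.8, 128 and 158 CPM with the hairpin, and of the 30 mitosis genes 20 and 22 were higher in the views of 6 and 5 libraries. Cholesterol synthesis genes stood lower in 18 of 25 cases with all libraries and 16 of 25 without replicate 1. Dhcr7, which makes the last step to cholesterol, went the other way, at 161, 161 and 130.4 CPM in controls and 216, 197 and 221 CPM with the hairpin, all 3 above the controls. Cpe, a carboxypeptidase that processes prohormones, read 78.9, 40.02 and 45.5 CPM in controls, 653 CPM in hairpin replicate 1, and 39.5 and 47.0 CPM in replicates 2 and 3, while Insm1, a transcription factor of enteroendocrine cells, read 0.919 CPM in replicate 1 and 4.13 to 16.7 CPM in the other 5 libraries.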
